A study of Acropora tenuis with 242 samples.

Results

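In larvae of the reef-building coral Acropora tenuis, 120 gene models changed in the same direction with time in the experiment and with heat, 23 of them upward and 97 downward. They were chosen from the larval counts themselves. Each count was scaled to a common library total (CPM, counts per 1e+06 counts of its library), the 3 libraries of a cross and treatment were averaged, and 1 was added before taking log2. The change with time was Ambient minus Pre, averaged over 11 crosses, and the change with heat was Hot minus Ambient, averaged over 10 crosses. Of 25142 gene models in the larval table, 9449 had a larval mean of at least 10 CPM, and 176 of these had both changes of the same sign and at least 0.5 in size, 39 rising and 137 falling. The 120 with the largest smaller change were kept, and both directions competed for these places. The larval changes with time and heat therefore describe how the members were picked and are given without a test.

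The animals were crosses within and between 5 Great Barrier Reef populations (BK, CU, DR, LS and SB), and expression was counted by tag-based RNA sequencing, which reads a short fragment per transcript. Larval pools were sampled ahead of the exposure (Pre, 33 libraries) and at its end, either from control temperature (Ambient, 33) or from heat (Hot, 30), with 3 libraries per cross and treatment, and LSxSB had no Hot library. Juveniles of 10 crosses were settled from the remaining larvae and kept at Ambient or Hot temperature in 4 symbiont treatments, coded C1, D1, SED and SS without further explanation in the labels. The stages do not share all crosses: CUxDR and DRxCU have juvenile libraries alone, and CUxBK, SBxBK and LSxSB larval libraries alone. The Ambient juveniles comprised 29 C1, 32 D1, 28 SED and 30 SS libraries, and the Hot juveniles 6 D1, 15 SED and 6 SS libraries with 0 of C1. The labels give neither the temperatures nor the ages, so the interval between Pre and Ambient is called time here without a length. Time and sampling occasion cannot be told apart.

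Larvae of this coral genus are ciliated planulae that swim, live on maternal reserves and become able to settle over days, and they are released without algal symbionts, which settled juveniles take up from the surroundings. In animals without internal temperature control, development generally runs faster in warmer water within the tolerated range, and heat beyond it induces stress genes such as chaperones. The files list gene models by identifier and do not pair them with names, so neither the function of a member nor the cell type it marks is given below.

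Larval libraries held 79712 to 1102351 counts (median 871516) and juvenile libraries 158481 to 962906 (median 369970). The shallowest larval library, replicate 2 of LSxCU at Pre, was followed by one of 536230 counts. Replicate libraries differed by more than counting error in every pair compared (a chi-square of at least 1.05 times its degrees of freedom). The labels do not say whether replicate libraries stem from separate cultures, and a p-value here reflects the spread between libraries, which may be partly technical. Juvenile columns carry an index number that falls into an early and a late block. In the 69 juvenile libraries used for heat, 23 of 27 Hot libraries were late and 40 of 42 Ambient libraries were early. Of the 2 late Ambient libraries, replicate 1 of CUxDR D1 stood apart. It had the highest share of counts in rising members and the lowest in falling members of all Ambient juvenile libraries (0.744% and 0.152%), whereas the other 3 libraries of its group held 0.160% to 0.267% and 0.525% to 0.603%. The counts of members called with juvenile heat, and the fitted values of the named members, are given with and without it.

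Among the 23 rising members the change with time had a median of 0.79 (0.63 to 1.20) on the log2(CPM + 1) scale, and the change with heat a median of 1.19 (0.64 to 3.52). Among the 97 falling members these medians were -0.82 (-3.34 to -0.62) and -1.29 (-2.56 to -0.62). All 9449 models at the level minimum had medians of 0.04 with time and 0.01 with heat. The change with time was the smaller of the pair in 21 of 23 rising and 74 of 97 falling members, so for most members heat was the larger step. At least 2-fold in both changes were 4 rising and 16 falling members. Both changes use the Ambient libraries, so they are not independent measurements, and no relation between them is drawn here. By at least 0.5 in each change, 2.49% of the 9449 rose with time and fell with heat and 1.41% did the reverse. By the same measure 0.413% rose in both and 1.45% fell in both. Error in the Ambient libraries enters the changes with opposite signs, so nothing is read from how these shares compare.

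**Figure D1:**
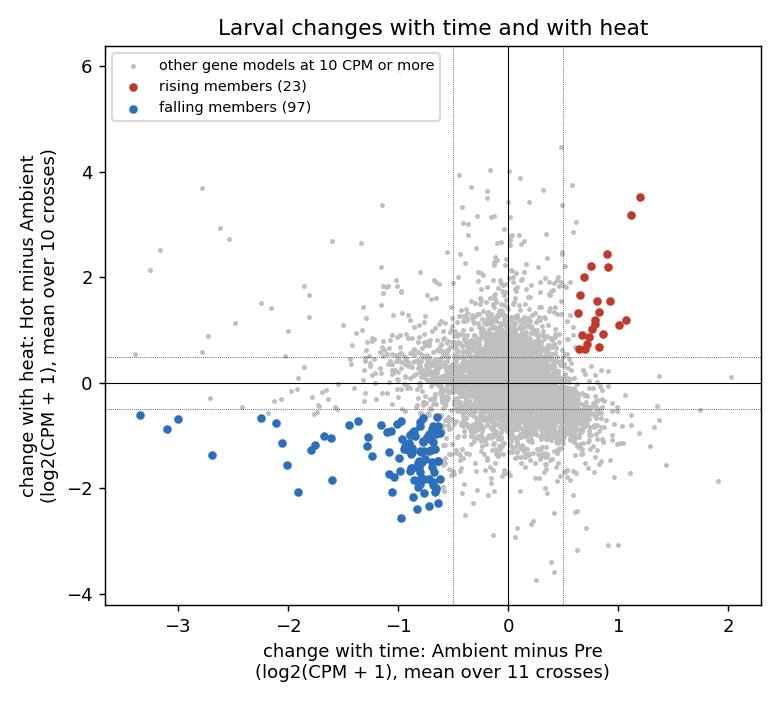
Each point is a gene model with a larval mean of at least 10 CPM, placed by its change with time (x axis, Ambient minus Pre) and with heat (y axis, Hot minus Ambient), both on the log2(CPM + 1) scale and averaged over crosses. The 23 rising members (red) lie at the upper right and the 97 falling members (blue) at the lower left, both outside the dotted lines at 0.5 by the way they were chosen.

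The limit of the list fell among near-equal models. The last 3 members had a smaller change of 0.620, 0.616 and 0.615 in size, and the next 3 models, left out, had 0.615, 0.613 and 0.612, the first of them rising. Members were moderately expressed. The larval mean was 25 CPM in the median rising member (11.3 to 435.3) and 32.6 CPM in the median falling member (10.6 to 309.6), against 44.3 CPM over all models at the level minimum.

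Summed over its members, the rising list took a median of 0.0537% of the counts of a Pre library (0.0347% to 0.0940%), 0.0882% of an Ambient library (0.0724% to 0.226%) and 0.259% of a Hot library (0.199% to 0.452%). The falling list went from 0.828% at Pre (0.475% to 1.43%) to 0.382% at Ambient (0.230% to 0.742%) and 0.130% at Hot (0.0701% to 0.415%). Neighbouring treatments overlapped in both lists when all crosses were pooled, while within crosses the mean shares kept the order Pre, Ambient, Hot in all 11 crosses for time and all 10 for heat, upward for the rising and downward for the falling list. In bulk larval RNA, a lower level of a transcript cannot be told apart from fewer cells that carry it.

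**Figure D2:**
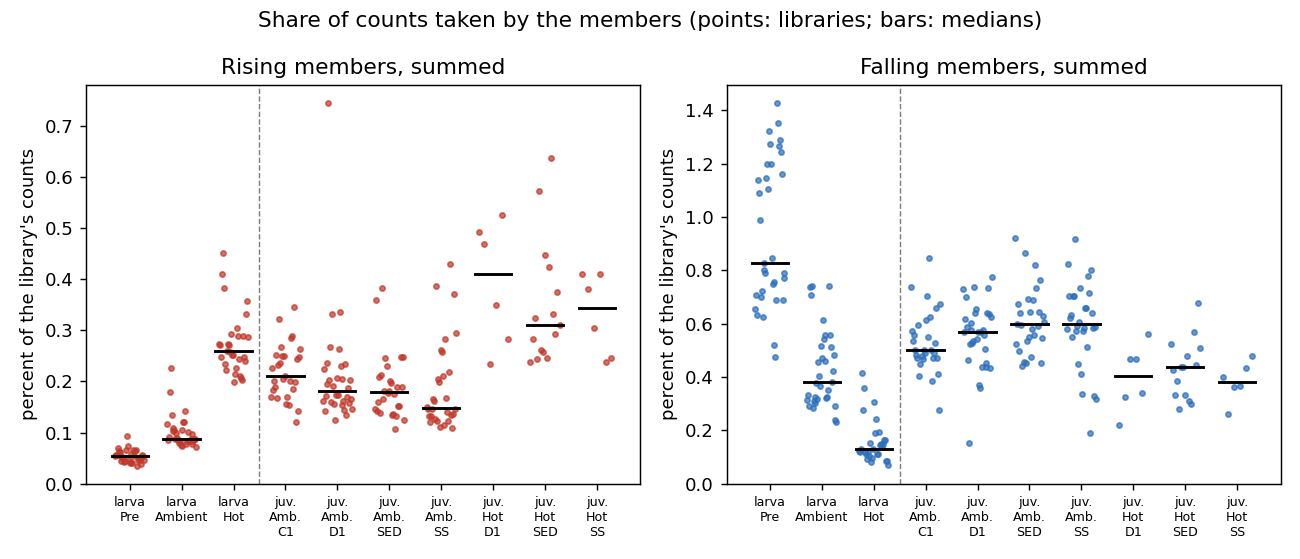
Percent of each library's counts (y axis) that fell on the 23 rising (left) and 97 falling members (right), with 1 point per library, bars at group medians, and larval treatments left of the dashed line. Larval medians run from 0.0537% at Pre to 0.259% at Hot on the left and from 0.828% to 0.130% on the right, and the highest Ambient D1 juvenile on the left, at 0.744%, is the late CUxDR library.

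Rising members differed among crosses more in their early levels than in their heated level. Their median level at Pre ranged from 2.66 in BKxBK to 3.97 in DRxDR, and at Hot from 5.16 in BKxBK to 6.31 in SBxSB (log2(CPM + 1)). The median change with time was smallest in DRxDR, at 0.03, where 12 of 23 members rose, and largest in BKxBK, at 1.09. With heat it was smallest in LSxCU, at 0.63, where 19 of 23 members rose, and largest in SBxSB, at 1.91. DRxDR thus had the highest Pre level and no median rise with time, and LSxCU had the highest Ambient level (4.89) and the smallest rise with heat. Over crosses, the median change was 0.84 ± 0.32 (SD, n = 11) with time and 1.39 ± 0.37 (SD, n = 10) with heat.

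Falling members went down in every cross at the median. The median change with time ran from -1.19 in SBxSB, where 97 of 97 members fell, to -0.38 in LSxSB, where 70 of 97 fell, with DRxDR also at -0.38. With heat the medians lay between -1.87 in LSxCU and -1.02 in LSxLS. From Pre to Hot the fall was largest in SBxSB (-2.74) and smallest in CUxBK (-1.71). The mean over crosses was -0.83 ± 0.33 (SD, n = 11) with time and -1.33 ± 0.29 (SD, n = 10) with heat.

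**Figure D3:**
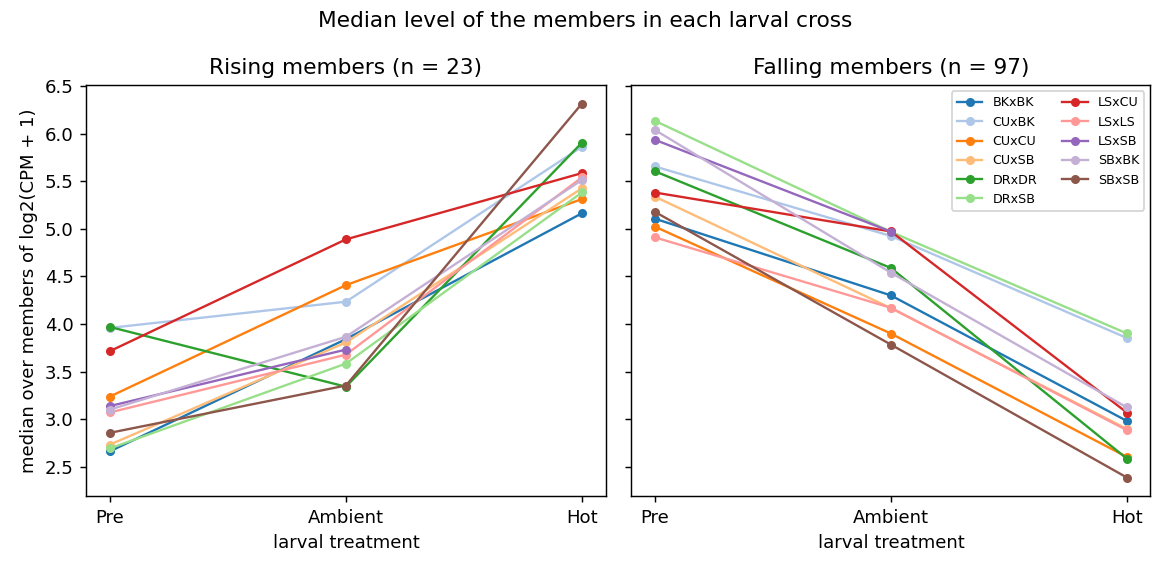
Median level over the 23 rising (left) and 97 falling members (right) at Pre, Ambient and Hot, in log2(CPM + 1), with 1 line per larval cross (LSxSB ends at Ambient). DRxDR starts highest among rising members (3.97) and dips at Ambient, whereas the falling members descend in every cross, to between 2.39 in SBxSB and 3.90 in DRxSB at Hot.

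Member by member, both changes kept their direction in every cross for 4 of 23 rising and 20 of 97 falling members, where 0.0952% and 0.307% of the 9449 models did so. Libraries of Pre, Ambient and Hot stood in order without overlap in at least 5 of 10 crosses for 5 rising and 54 falling members, against 0.339% and 1.12% of models. Hot and Ambient libraries were apart, in the members' direction, in at least 8 of 10 crosses for 10 rising and 55 falling members, against 8.16% and 6.94%. The same contrasts chose the members, so nothing is read from these shares.

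The choice was also run without each cross in turn, and the models then chosen were scored in that cross. These lists are not the members themselves. They shared 17 to 22 of the rising and 84 to 92 of the falling members. When members were chosen again without a given cross, the rising models so chosen rose with heat in that cross in 90% (LSxCU) to 100% of cases, with a median of 97.8%, while 44.6% to 55.2% of all models at the level minimum did so. They rose with time in 46.2% (DRxDR) to 95.7%, with a median of 86.4%, against 41.8% to 59.1% of all models. Falling models chosen in this way fell with heat in 84.5% (SBxSB) to 100% of cases, with a median of 94.9%, against 44.8% to 55.4% of all models. They fell with time in 66.3% (LSxSB) to 99.0%, with a median of 79.0%, against 40.8% to 58.2%. In DRxDR the rising models chosen without it did not carry over for time. The crosses share parental populations and come from the same larval data. These shares therefore describe the rule of choice, and nothing about the members is read from them.

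The rising member with the largest smaller change was Amillepora15459-RA. It had 0 CPM in the lowest, 4.07 in the median and 68.5 in the highest Pre library, 0, 15.8 and 69.1 CPM at Ambient, and 91.97, 179.6 and 480.3 CPM at Hot. Every one of the 30 Hot libraries lay above every Ambient library, while 1 of 33 Ambient libraries lay above every Pre library. Its changes were 1.20 with time and 3.52 with heat. In 9 of 11 crosses it rose with time. The exceptions were CUxBK, where the mean went from 42.1 to 12.0 CPM, and DRxDR, where it went from 15.8 to 0.833 CPM, before both reached 210 and 300.0 CPM at Hot.

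Amillepora00723-RA, the other leading rising member, had 0, 2.21 and 16.8 CPM (lowest, median, highest) at Pre, 0, 5.46 and 28.6 CPM at Ambient, and 27.0, 73.0 and 172 CPM at Hot. Of the 30 Hot libraries, 29 lay above every Ambient library. It rose with time in 10 of 11 crosses, by 1.12 on average, and with heat in 10 of 10, by 3.18. The heat step was widest in SBxSB, from a mean of 2.12 to 129 CPM, and narrowest in LSxCU, from 20.1 to 68.0 CPM.

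Among falling members Amillepora30009-RA led. Its lowest, median and highest values were 47.0, 323 and 589 CPM at Pre, 19.3, 71.9 and 160 CPM at Ambient, and 1.47, 14.9 and 53.1 CPM at Hot. In 22 of 30 Hot libraries it was below every Ambient library. Its mean changes were -1.91 with time and -2.07 with heat, and it fell in 11 of 11 and 10 of 10 crosses. DRxDR and CUxBK began far below the rest, at means of 92.8 and 82.3 CPM at Pre, where the other 9 crosses had 238.4 to 559.6 CPM.

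Amillepora06598-RA had cross means that differed widely at Pre. Its values were 2.95, 72.9 and 282.7 CPM at Pre, 2.76, 12.6 and 88.7 CPM at Ambient, and 0, 2.61 and 80.4 CPM at Hot (lowest, median, highest). The Pre mean was 71.2 CPM or more in 6 crosses and was 22.5 CPM or less in the other 5. The mean of 71.2 CPM was that of DRxSB, whose Pre libraries ran from 6.57 to 134 CPM and so spanned this divide. With time the level went up by 0.98 in BKxBK, and slightly in CUxCU (0.24) and CUxSB (0.15). With heat the member fell in 10 of 10 crosses, by 1.83 on average, although CUxBK kept a mean of 49.9 CPM at Hot and the other 9 crosses had at most 6.26 CPM.

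**Figure D4:**
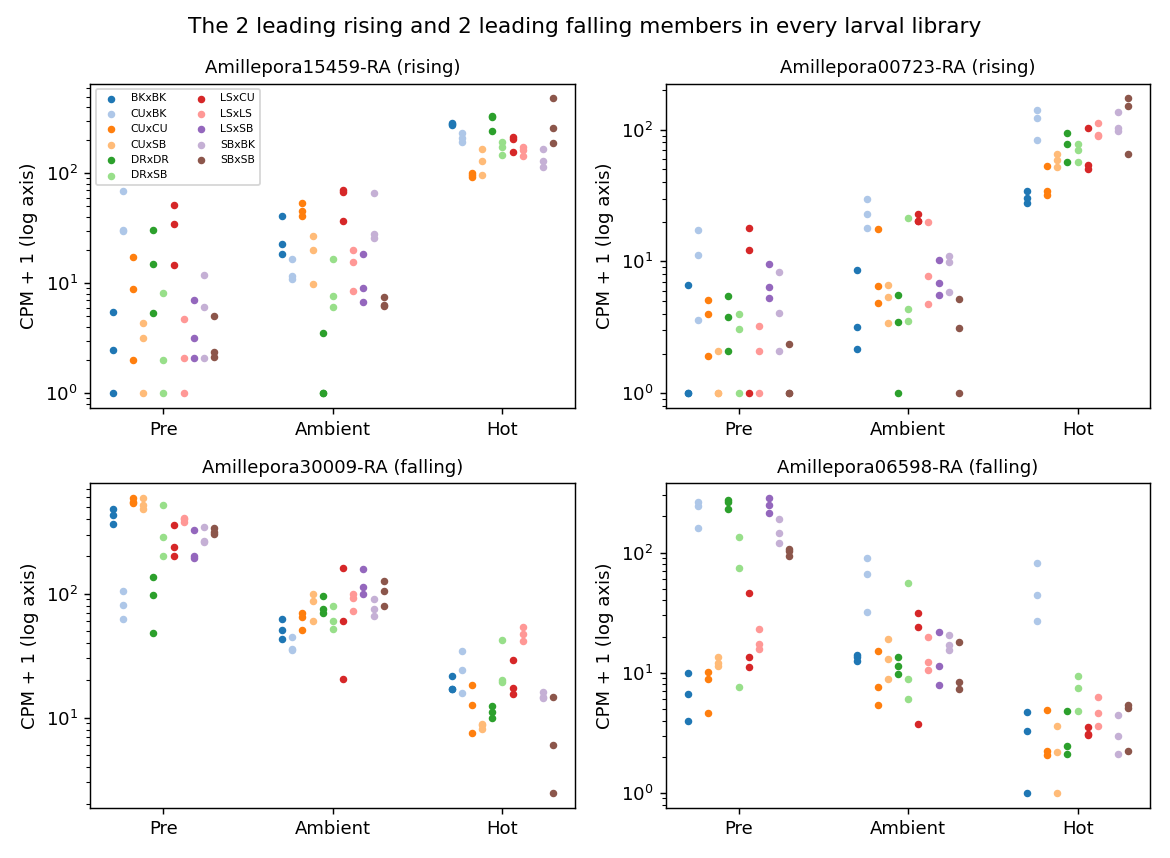
CPM + 1 on a log axis for the leading rising (top) and falling members (bottom) in every larval library, grouped by treatment on the x axis and coloured by cross. For Amillepora15459-RA all 30 Hot libraries, from 91.97 CPM upward, lie above every Ambient library, and for Amillepora06598-RA the CUxBK libraries stay high at Hot.

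The members were chosen on changes averaged over crosses, and how far crosses differed around these averages was tested. The choice was not blind to it, since a model could pass through large changes in few crosses. With time, 2 rising and 7 falling members moved in their direction in under 8 of 11 crosses. With heat, 0 rising and 7 falling members did so in under 8 of 10 crosses. The lowest of these was Amillepora12612-RA, which fell with heat in 4 of 10 crosses. Nothing about the members is therefore read from their share called beside that of all models. Averaged over treatments, levels differed among crosses in 10 of 23 rising and 78 of 97 falling members, against 27.6% of all models tested (edgeR quasi-likelihood F-test on 32 summed profiles, Benjamini-Hochberg false discovery rate 0.05). The heat step differed among crosses in 20 rising and 33 falling members, against 30.4% of models in 60 libraries. The time step differed in 19 rising and 88 falling members, against 45.5% in 66 libraries. For falling members and heat, the 34.0% called was close to the share over all models. Whether the steps differed in these counts was not tested, and without replicate 3 the rising counts were 14 for heat and 15 for time. All 120 members passed the low-count filter in these fits. With 1 replicate number left out, which leaves 2 libraries per group, the count for falling members and heat ran from 9 to 39.

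The spread of single members over crosses is given as a description. The choice used the size of the same changes, so nothing is read from how it compares with all models. The SD over crosses of the change with time had a median of 0.89 in rising and 0.58 in falling members, and of the change with heat 0.68 and 0.55, against 0.36 and 0.31 over all models. For Amillepora15459-RA the heat step differed among crosses with an adjusted p of 4.57e-13 in edgeR's quasi-likelihood test (2.72e-95 to 9.71e-07 over the alternatives), and its mean step ran from 1.05 in CUxCU to 7.36 in DRxDR. For Amillepora06598-RA the time step differed with an adjusted p of 6.22e-08 in edgeR (5.93e-75 to 0.00564 over the alternatives), from -4.46 in DRxDR to 0.98 in BKxBK, while its heat step did not pass the threshold (adjusted p = 0.0772, edgeR; 7.01e-06 to 0.874 over the alternatives).

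Some members lay close together in the numbering of the gene models. Of the 120, 31 were within 2 identifier numbers of another member, in 13 runs of up to 4 members. Of these runs 10 held falling members alone, 2 rising members alone and 1 both. How many models of another list of 120 would lie this close was not computed, so nothing is read from this count. In the run of 4 that begins with Amillepora08886-RA, the members' values over larval libraries had correlations of 0.92 to 0.97, as a description over libraries that share crosses and treatments. The files give no positions or sequences, so whether neighbours in number are neighbours in the genome was not tested, and near-identical copies could share reads. Models next in number that were no members moved in the falling direction in both changes in 32.8% of 61 cases, against 15.6% of all models, and in the rising direction in 36.8% of 19 cases, against 25.4%.

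All 120 members were listed in the juvenile table, which was made separately, so levels across the stages are set side by side and not tested. Juvenile column names carry the word host and larval ones do not, so reads may have been handled differently before counting. Whether this moved the levels was not tested. The median rising member had 9.17 CPM in Pre larvae, 16.9 in Ambient larvae, 40.4 in Hot larvae and 31.2 in Ambient juveniles. The median falling member had 56.9, 23.8 and 8.21 CPM in larvae and 12.7 CPM in Ambient juveniles. The larval levels at Pre, Ambient and Hot all took part in the choice, so no place is read for juveniles between the larval treatments.

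Ambient juveniles exceeded Ambient larvae in 17 of 23 rising members (73.9%, where 48.3% of all models did) and were lower in 69 of 97 falling members (71.1%, against 51.7%). Against Pre larvae 19 rising members were higher (82.6%, against 48.1% of all models) and 84 falling members lower (86.6%, against 51.9%). Against Hot larvae juveniles were lower in 17 of 23 rising members (73.9%, against 52.6%). They were higher than Hot larvae in 74 of 97 falling members (76.3%, against 47.4%). The choice used the Pre, Ambient and Hot larval values, so nothing about juveniles is read from these shares. Single members varied widely. Amillepora15459-RA had a median of 1.91 CPM in Ambient juveniles and was at 0 in 56 of these libraries. Amillepora30009-RA was at 0 in 101 of them, and Amillepora06598-RA, low in Hot larvae, had a median of 60.4 CPM.

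Heat in juveniles is a measurement that took no part in choosing the members. It was tested over 14 combinations of cross and symbiont treatment that held both temperatures, with a term for each combination (edgeR quasi-likelihood, 69 libraries, false discovery rate 0.05). After the low-count filter 19 rising and 50 falling members could be tested, and 4 and 47 could not. Of the 9412 models tested 34.2% were called, 17.0% higher and 17.2% lower at Hot. Of the 19 rising members 13 were higher and 0 lower, with 15 and 1 at an unadjusted p under 0.05. Of the 50 falling members 29 were lower and 0 higher, with 34 and 2 at an unadjusted p under 0.05. The median fitted log2 fold change was 0.65 in the rising members tested, with 16 positive, and -0.68 in the falling members tested, with 6 positive, beside -0.02 over all models. DESeq2 called the same 42 members, so it too had 0 in the other directions.

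Index block and temperature nearly coincided, and these counts depended on it. With the block as a term edgeR called 0 rising and 0 falling members, at 0.348% of all models higher and 0.164% lower, and the medians were 0.25 and -0.28. At an unadjusted p under 0.05, 4 rising members were then higher and 6 falling members lower. In the early block alone (16 libraries) 1 rising and 0 falling members were called, with medians of 0.66 and -0.32, and 0.825% and 0.425% of models. All 42 called members kept their sign with the block as a term, and 37 of the 38 that could be tested in the early block did. DESeq2 was not run with the block. The part of the block in the result was not tested beyond these fits.

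The block term rests on few libraries, among them the CUxDR D1 library that stood apart. Without that library and with no block term 15 rising members were higher and 31 falling members lower (17.1% and 18.9% of models), with medians of 0.75 and -0.71. Without it and with the block as a term the numbers were 2 and 1 (1.47% and 0.873%), with medians of 0.64 and -0.44. With both late Ambient libraries left out, 4 rising and 0 falling members were called with the block as a term (2.30% and 1.90%), with medians of 0.69 and -0.52. These fits without libraries were added after the data were seen. Over these 3 fits, which mix fits with and without the block term, the rising median was 0.64 to 0.75. The falling median was -0.71 to -0.44, and the number called varied. The planned fit with the block as a term over all 69 libraries lay outside both ranges, at 0.25 and -0.28. The early block alone gave 0.66 and -0.32. With the whole cross CUxDR left out and no block term the medians were 0.78 and -0.80, with 13 rising and 29 falling members called (35.2% of all models).

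Counted as shares of libraries, the 4 early Hot juveniles held 0.524% (SBxSB D1), 0.375% (SBxSB SED), 0.238% (SBxSB SS) and 0.233% (LSxLS D1) of their counts in rising members. The 40 early Ambient juveniles ran from 0.107% to 0.382% with a median of 0.168%, and the 23 late Hot juveniles from 0.238% to 0.636% with a median of 0.323%. All 4 early Hot libraries lay above the early Ambient median, and 1 lay above every early Ambient library. For falling members the 4 early Hot libraries held 0.341%, 0.676%, 0.436% and 0.4663% in the same order, beside a median of 0.594% in early Ambient (0.318% to 0.866%) and 0.399% in late Hot libraries (0.220% to 0.570%). Here 3 of the 4 lay below the early Ambient median, within its range.

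By combination, the median rising member was higher at Hot in 14 of 14, from 0.13 in CUxDR SED to 1.27 in DRxSB SED (log2(CPM + 1)), although some combinations rest on 1 Hot library. The median falling member was lower in 12 of 14, from -1.58 in CUxDR D1 to 0.16 in SBxSB SED. Both exceptions were SBxSB, under SED and under SS. Each of these has 1 of its 2 Hot libraries in the early block, and so have SBxSB D1 and LSxLS D1, where the falling median was -0.38 and -0.97. The values of CUxDR D1 include the Ambient library that stood apart. The summed share of the rising members at Hot was 0.894 to 2.77 times that at Ambient (median 1.83), and above it in 13 of 14 combinations. That of the falling members was 0.470 to 1.11 times (median 0.621), and below it in 13 of 14. Fitted within single symbiont treatments, 7 of 16 rising and 22 of 38 falling members tested were called under SED, where 24.9% of all models were called. Under D1 these were 1 of 17 and 1 of 45, at 1% of models, and under SS 3 of 16 and 5 of 37, at 6.57%. The rising medians were 0.51, 0.80 and 0.83 and the falling medians -0.77, -0.88 and -0.65 under SED, D1 and SS, and the difference between treatments was not tested.

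**Figure D5:**
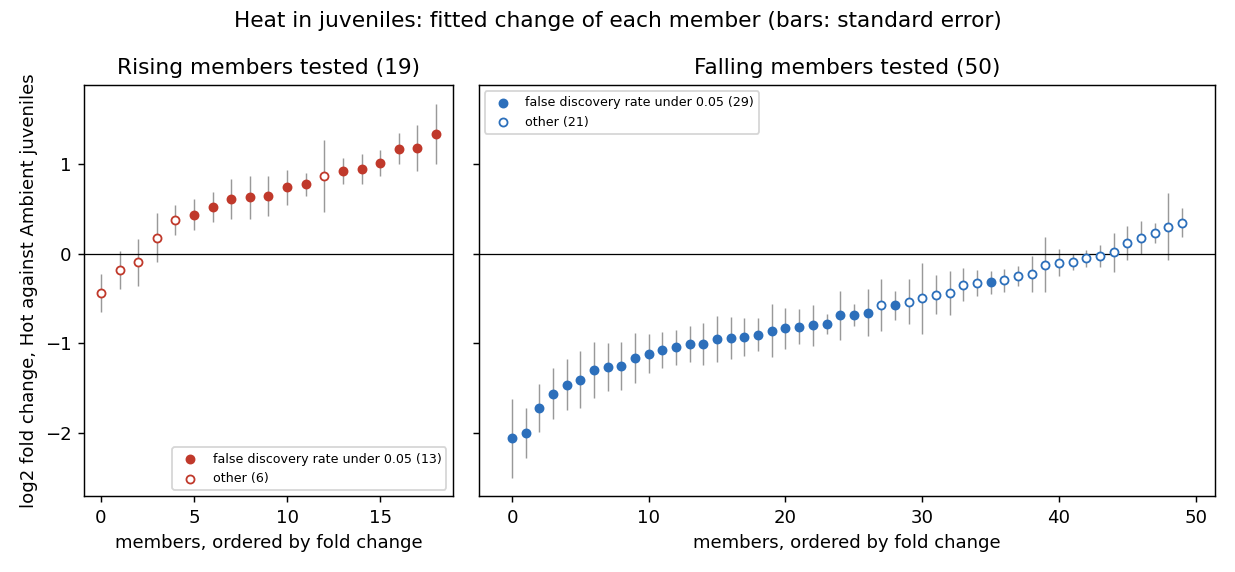
Fitted log2 fold change (y axis, Hot against Ambient juveniles, bars for standard error) of the 19 rising and 50 falling members that could be tested, ordered by size on the x axis, with filled points for a false discovery rate under 0.05 without the index block as a term. All 13 filled red points lie above 0 and all 29 filled blue points below 0, and with the index block as a term 0 of them passed.

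The members higher in Hot juveniles with the largest fold change were Amillepora19312-RA and Amillepora26871-RA. Amillepora26871-RA had 0 CPM in the lowest, 8.45 in the median and 87.4 in the highest of 42 Ambient juveniles, and 3.12, 17.6 and 92.1 CPM in 27 Hot juveniles, so the groups overlapped widely. Its fitted log2 fold change was 1.18 ± 0.26 (SE; edgeR quasi-likelihood, adjusted p = 2.54e-04). With the block as a term it was 0.45, not past the threshold. Without the CUxDR D1 library it was 1.303 with no block term and 1.11 ± 0.45 with it (edgeR, adjusted p = 0.172). In larvae it was 13.4 CPM in the median Ambient and 72.4 CPM in the median Hot library, and 28 of 30 Hot libraries lay above every Ambient library.

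Amillepora19312-RA was a member of another sort. In juveniles it had 1.96, 94.7 and 1228 CPM at Ambient and 23.9, 235.5 and 1072 CPM at Hot (lowest, median, highest), a fold change of 1.34 ± 0.34 (SE; edgeR, adjusted p = 0.00146). With the block as a term it was 0.25, not past the threshold. Without the CUxDR D1 library these values were 1.41 and 0.79 ± 0.67, the latter not past the threshold (edgeR, adjusted p = 0.589). In larvae its median was 1.13 CPM at Pre, 1.12 at Ambient and 3.05 at Hot, and it rose with time in 5 of 11 crosses. Its larval mean rested on CUxBK, which had 4.02 CPM at Pre, 537 at Ambient and 150 at Hot, and there it fell with heat.

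Amillepora23680-RA and Amillepora33410-RA had the largest falls. Amillepora33410-RA had 0, 160 and 563 CPM (lowest, median, highest) at Ambient and 0, 39.6 and 104 CPM at Hot. All 27 Hot libraries lay below the Ambient median. The fold change was -2.0 ± 0.27 (SE; edgeR, adjusted p = 5.97e-08), and -1.34 with the block as a term, not past the threshold. Without the CUxDR D1 library these values were -2.02 and -1.71 ± 0.50, the latter just past the threshold (edgeR, adjusted p = 0.04998), and with both late Ambient libraries left out the block fit gave -1.72 (adjusted p = 0.0730). In larvae it went from a median of 215.5 CPM at Pre to 118.2 at Ambient and 39.1 at Hot.

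Amillepora23680-RA had a median of 8.81 CPM (0 to 42.7) in Ambient juveniles and 0 (0 to 10.96) in Hot juveniles, of which 14 of 27 were at 0. The fold change was -2.06 ± 0.44 (SE; edgeR, adjusted p = 1.92e-04). With the block as a term it was -0.73, not past the threshold. Without the CUxDR D1 library these values were -2.09 and -1.42 ± 1.01, the latter not past the threshold (edgeR, adjusted p = 0.498), and with both late Ambient libraries left out the block fit gave -2.94 (adjusted p = 0.185). Larval libraries were at 0 in 20 of 33 Ambient and 20 of 30 Hot cases. Its larval fall with time came from crosses such as DRxDR, from a mean of 131 to 0 CPM, while CUxBK went from 74.6 to 155.03 CPM.

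The member called with heat in the early block alone and in both fits with the block as a term that left out late Ambient libraries was Amillepora03092-RA, singled out after its values were seen. It had 85.5, 288.1 and 839 CPM in early Ambient juveniles and 319 to 1163 CPM in the 4 early Hot juveniles, with a median of 627. The groups overlapped, and the lowest early Hot library was above the early Ambient median. In the early block alone its fold change was 1.26 ± 0.28 (SE; edgeR, adjusted p = 0.0324), and over all 69 libraries 1.18 ± 0.17 (adjusted p = 2.43e-07), falling short with the block as a term over all of them (1.02 ± 0.30, adjusted p = 0.113). With the block as a term and without the CUxDR D1 library it was 1.51 ± 0.33 (edgeR, adjusted p = 0.00645). In larvae it had medians of 47.0 CPM at Pre, 83.4 at Ambient and 291.4 at Hot, and it rose in 11 of 11 and 10 of 10 crosses.

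The leading larval members did not all carry over. Amillepora00723-RA, which rose widely in Hot larvae, had a median of 48.9 CPM (8.47 to 146) in Ambient and 39.5 CPM (14.5 to 146) in Hot juveniles of the heat comparison, and its fold change was -0.18 ± 0.21 (SE; edgeR, adjusted p = 0.548; -0.14 without the CUxDR D1 library, and 0.10 without it and with the block as a term). Amillepora06598-RA fell, from a median of 61.8 CPM (9.10 to 167) to 26.4 CPM (5.98 to 95.8), with a fold change of -1.04 ± 0.19 (SE; edgeR, adjusted p = 2.02e-05). Its 4 early Hot libraries had 39.8 to 80.4 CPM, and with the block as a term it was at -0.72, not past the threshold (-0.89 without the CUxDR D1 library, also not past it). Amillepora30009-RA was too low in juveniles to be tested. Amillepora15459-RA did not pass the low-count filter over single libraries. It had a median of 0 CPM (0 to 17.96) in the 42 Ambient juveniles, where 22 were at 0, and 7.96 CPM (0 to 46.9) in the 27 Hot juveniles, of which 24 lay above the Ambient median. With counts summed per combination and temperature, an alternative chosen after seeing the data and without a block term, it could be tested and was higher at Hot by 1.75 ± 0.40 (SE; edgeR, adjusted p = 0.00340).

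Symbiont treatment was compared in the Ambient juveniles of all 10 crosses with cross as a term. Levels differed among the 4 treatments in 8 of 17 rising and 17 of 49 falling members that could be tested, against 30.5% of all 8954 models (edgeR quasi-likelihood F-test). The pair SED and C1 had been the pair with the most calls in earlier work on these data. Between them 30.0% of models differed, 13.7% higher and 16.2% lower in SED. Among members tested, 3 rising ones were higher and 3 lower, and 9 falling ones were higher and 3 lower. The median fold change was 0.04 in rising and -0.14 in falling members tested. Both medians changed sign with the index number as a covariate, to -0.25 and 0.18. In early-block libraries with that covariate they were -0.20 and 0.15, and 2 of 17 rising and 5 of 50 falling members were called, beside 8.52% of all models.

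The largest single difference was in Amillepora01100-RA, a falling member. It had 24.8, 59.3 and 146 CPM (lowest, median, highest) in C1 juveniles and 207, 441 and 811 CPM in SED juveniles, so the groups did not overlap. D1 and SS lay between, with medians of 98.3 and 242.6 CPM. The fold change of SED against C1 was 2.73 ± 0.18 (SE; edgeR, adjusted p = 8.76e-27; 2.47 to 3.33 over the alternatives). Hot SED juveniles had a median of 134 CPM and Hot SS juveniles 79.0 CPM, below Ambient of the same treatment, whereas Hot D1 juveniles had 309 CPM, above Ambient D1. The Ambient medians cover all 10 crosses and the Hot medians fewer, and the difference between treatments was not tested. Over all treatments in the heat comparison it was lower at Hot by -0.80 ± 0.23 (SE; edgeR, adjusted p = 0.00467), with 0.52 in the early block alone, not past the threshold. With the block as a term it was -0.63, and -0.61 without the CUxDR D1 library, neither past the threshold. In larvae its medians were 146 CPM at Pre, 74.7 at Ambient and 51.6 at Hot.

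Among rising members Amillepora24973-RA was higher in SED, with a median of 32.9 CPM (5.10 to 137) against 7.91 CPM (0 to 41.6) in C1, a fold change of 2.12 ± 0.28 (SE; edgeR, adjusted p = 3.66e-10). The groups overlapped. Amillepora03522-RA was lower, with a median of 4.67 CPM (0 to 38.8) in SED against 41.9 CPM (0 to 241.2) in C1, a fold change of -2.58 ± 0.41 (SE; edgeR, adjusted p = 1.70e-07). Both were also called in the early-block fit with the index number. Amillepora19312-RA was lower in SED as well (-1.29 ± 0.47 SE, edgeR, adjusted p = 0.0261), but not past the threshold in that fit (adjusted p = 0.147) or without replicate 3 (-0.98, adjusted p = 0.242).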

How the data were processed

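Tag-based RNA libraries were made from larval and juvenile tissue with the kit and protocol in the labels. For each stage the authors deposited a table of unnormalized counts, whole numbers by gene model and library. The submitters' processing notes name Bowtie2 2.2.9. For the counter and the reference, the tool and version were not given in the sources used here. The identifiers begin with Amillepora, whereas the animals are Acropora tenuis, so the gene models may be those of another species. Whether crosses differed in how well their reads mapped was not tested. All columns were mapped to samples by the title in their names, and 0 were left unmapped. The members and lists were chosen with earlier results of these data known.

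CPM used column totals in levels and in the choice of members, and trimmed-mean library sizes in the fits. Models were compared by edgeR 4.0.16 under R 4.3.3 (filterByExpr, glmQLFit, glmQLFTest) across the whole table, with Benjamini-Hochberg adjustment and a threshold of 0.05. The standard error is the fold change divided by the root of its F statistic. Scripts were tested on simulated data. The models named are the 2 rising and 2 falling members with the largest smaller larval change, and per juvenile comparison the 2 highest and 2 lowest called members whose mean log2 CPM reached 3. The alternatives were DESeq2 1.42.0, other size factors, no low-count filter, replicates or crosses left out, index blocks and other settings of the choice. The depth sets what low members can show: 0 counts in a median juvenile library allow several CPM.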

Additional observations from a re-analysis of the deposited data

Results flagged for a closer look

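A value far from the rest of its group was looked for in 24 groups and found in 4. How often such values arise in groups like these was not tested, so 4 is not read as many. For Amillepora06598-RA the level and the change in CUxBK use the same Hot libraries. Amillepora30009-RA had a mean of 46.7 CPM at Hot in LSxLS, and the nearest of the other crosses had 26.2 CPM. Amillepora06598-RA had 49.9 CPM at Hot in CUxBK, nearest 6.26 CPM, and its fall with heat there was the smallest, at -0.31 against -1.41 in the nearest cross. Amillepora23680-RA had 2.07 CPM in replicate 2 of the Hot SS juveniles of SBxSB and 0 in the other 5 Hot SS libraries. In that library of 483376 counts this value is 1 read.

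Differences among crosses were tested by edgeR's quasi-likelihood test of the cross terms with Benjamini-Hochberg adjustment. The same larval libraries chose the members, and the choice was not blind to these differences. Nothing about the members is therefore read from their shares called, and the p-values of leading members are a description. The heat step differed in 20 rising (86.96%) and 33 falling members (34.0%), beside 30.4% of all models, and the falling share was near that of all models. Among leading members, adjusted p for the heat step was 4.57e-13 for Amillepora15459-RA (9.71e-07 at the highest over the alternatives), 2.30e-04 for Amillepora00723-RA (0.0523 at the highest) and 1.06e-04 for Amillepora30009-RA (0.00663 at the highest). The time step differed in 19 rising (82.6%) and 88 falling members (90.7%), beside 45.5% of all models, with adjusted p of 7.46e-09 for Amillepora15459-RA (2.00e-05 at the highest), 3.58e-07 for Amillepora30009-RA (0.00615 at the highest) and 6.22e-08 for Amillepora06598-RA (0.00564 at the highest), by the same test.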

How the results depend on the processing

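Of models at the level minimum, 0.413% passed the rule as rising and 1.45% as falling. At a pseudocount of 5 the rising share was 0.233%. It was 0.424% and 0.299% at minima of 2 and 30 CPM, and the falling share 1.65% and 1.10%. Over 8 such settings 9 to 23 of the 23 rising and 49 to 97 of the 97 falling members were shared. Left-out replicate numbers gave 0.424% to 0.4663% rising and 1.46% to 1.47% falling.

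Juvenile heat called 50 models with the index block as a term, 100 in the early block alone, 409 with the block as a term and no late Ambient libraries, and 228 with the block as a term and no late CUxDR D1 library. The same fits called 0, 1, 4 and 2 rising and 0, 0, 0 and 1 falling members, and the block as a term moved the rising median to 0.25. SED, D1 and SS alone called 2058, 85 and 515 models, with 7, 1 and 3 rising members, and D1 and SS 1 and 5 falling. No low-count filter gave 49 falling members lower and 2 higher. With counts summed per combination and temperature, 12 rising members were higher and 35 falling members lower, and 1 falling member was higher. Without 1 replicate number juvenile heat called 1550 to 3153 models, with 9 to 13 rising members higher and 12 (without replicate 1) to 27 falling members lower.

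Symbiont calls were 1517 to 3002 without 1 replicate number, with 4 to 9 rising and 11 to 18 falling members. For SED against C1 they were 1541 to 2752, with 3 to 7 rising and 8 to 14 falling members. Early-block libraries with the index number as a covariate gave 1293 models and 11 falling members among treatments, and 770 models, 2 rising and 5 falling members for SED against C1, where the member medians also changed sign.

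Cross differences called 2637 to 2939 models without 1 replicate number, with 6 to 10 rising and 67 to 74 falling members, and 8051 models and 22 rising members with libraries in place of sums. Cross by heat called 2017 to 2056 models, with 14 to 19 rising and 9 (without replicate 1) to 39 falling members, 2231 models without CUxBK, and 50 falling members with no low-count filter. Cross by time called 3225 to 3874 models, with 15 to 16 rising and 72 to 78 falling members. Replicate numbers did not pair larval libraries: deviations of same-numbered libraries had correlations of -0.225 to 0.128. With the replicate block, cross by heat called 3358 models, 20 rising and 29 falling members, cross by time 5249, 19 and 88, and cross differences on libraries 8137, 22 and 97. The cause of these moves was not tested. Apart from Amillepora01100-RA in juvenile heat (-0.80, and 0.52 in the early block alone), no value called in a main fit and tabulated under the alternatives changed sign. Amillepora03522-RA was not called in the main fit of juvenile heat (0.88). It was called at 1.02 without the late CUxDR D1 library and was at -1.42, not called, with the block as a term. The summed counts, the early-block fits with the index number and the fits without late Ambient libraries were chosen after seeing the data.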
